A study of Mus musculus with 33 samples.

Results

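Hypoxia response and glycolysis genes were followed as a set of 38 genes in RNA-seq of mouse mammary tumours. The genes were given by symbol, 19 of them glycolytic enzymes and the others known targets of the hypoxia-inducible factors, and all 38 were found among the 54532 rows of the count table. A further row that also carries the symbol Aldoa was not used. Each member passed the filter on low counts in every comparison made here.

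Of the 33 tumours sequenced, 32 could be placed in 6 groups by their titles, and every one of them has FVB in its genotype field. The VEH_7 group (3 tumours) and the VEH group (4 tumours) came from mice given vehicle. The M20_7 group (4 tumours) and the MYT group (11 tumours) came from mice given RP-6306 at 20 mg/kg, an inhibitor of PKMYT1, a kinase that restrains CDK1; the protocol gives that dose daily and the treatment field gives it bid. The SPON (5 tumours) and WT (5 tumours) groups have no treatment in their labels. The design text names cyclin E transgenic tumours and PyMT tumours without saying which title stands for which. The labels describe tumours transplanted into mice and give no line or clone, no promoter of the transgene, no age, no meaning for the suffix _7 and no treatment period per tumour. A difference between a treated and a vehicle group can therefore not be told apart from a difference between the tumours transplanted. Whether each tumour grew in its own animal is not stated, and each p-value reflects spread among the sequenced samples, which may be partly technical.

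When oxygen is short, the prolyl hydroxylases of the Egln family stop marking the alpha subunits of the hypoxia-inducible factors (HIF) for destruction, and HIF then binds DNA at a short core motif near its target genes. The targets raise glucose uptake and glycolysis, export the acid and lactate that glycolysis makes, call in blood vessels and modify collagen, and they include Egln genes themselves, which closes a feedback loop. In solid tumours these genes are commonly read as a sign of poorly perfused areas, and glycolytic genes are also high in many tumour cells that have oxygen. Several steps are carried out by isozymes from separate genes, such as Aldoa and Aldoc (aldolase), Eno1 and Eno2 (enolase) or Ldha and Ldhb (lactate dehydrogenase), which differ between tissues.

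The start regions of the members carry the letters of that core motif often. RefSeq start regions on GRCm38.p6, each from 250 bases before to 50 bases after a transcript start, were found for 34 of the 38 members. The letters ACGTG, searched on both strands, were in those of 24 members (70.6%), against 21.8% of the 27025 genes in the table. The related letters GCGTG were in those of 23 members (67.6%, against 35.2%). At least 1 of the motifs was present for 31 members (91.2%, against 46.7%), and neither for Eno2, Gpi1 and Tpi1. A gene was counted if any of its start regions matched, and some genes had several. By single start region, ACGTG was in 54.9% of the 51 of members, against 19.6% of all 32851. GCGTG was in 54.9% against 32.4%, and either motif in 78.4% against 43.8%. The start regions of the members were also richer in G and C, at a mean of 63.2% against 53.6%, which by itself makes GCGTG more frequent. A match describes letters and not a bound site, and no binding was measured.

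The start regions of 6 members are shown because these genes were called in opposite directions between the MYT and the VEH tumours, with every match to either motif, on either strand, in capitals (CACGT and CACGC are ACGTG and GCGTG read on the other strand). Car9 (ENSMUSG00000028463; chr4:43506776-43507075, plus strand), Slc16a3 (ENSMUSG00000025161; chr11:120948817-120949116, plus strand), P4ha2 (ENSMUSG00000018906; chr11:54100674-54100973, plus strand) and Eno2 (ENSMUSG00000004267; chr6:124769624-124769923, minus strand) were lower in MYT tumours. Aldoc (ENSMUSG00000017390; the upstream one of its 2 start regions, chr11:78322823-78323122, plus strand) and Pfkp (ENSMUSG00000021196; chr13:6648722-6649021, minus strand) were higher there.
Car9: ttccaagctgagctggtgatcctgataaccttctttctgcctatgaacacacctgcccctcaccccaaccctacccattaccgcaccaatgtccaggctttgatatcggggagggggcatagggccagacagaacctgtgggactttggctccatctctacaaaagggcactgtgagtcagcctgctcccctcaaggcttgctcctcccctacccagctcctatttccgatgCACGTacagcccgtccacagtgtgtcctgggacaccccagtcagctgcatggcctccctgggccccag
Slc16a3: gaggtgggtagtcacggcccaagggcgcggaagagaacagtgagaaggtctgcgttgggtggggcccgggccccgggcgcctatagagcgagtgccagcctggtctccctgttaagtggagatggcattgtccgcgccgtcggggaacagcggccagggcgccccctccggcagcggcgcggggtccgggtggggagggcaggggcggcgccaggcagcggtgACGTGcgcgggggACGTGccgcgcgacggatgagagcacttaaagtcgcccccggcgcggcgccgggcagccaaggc
P4ha2: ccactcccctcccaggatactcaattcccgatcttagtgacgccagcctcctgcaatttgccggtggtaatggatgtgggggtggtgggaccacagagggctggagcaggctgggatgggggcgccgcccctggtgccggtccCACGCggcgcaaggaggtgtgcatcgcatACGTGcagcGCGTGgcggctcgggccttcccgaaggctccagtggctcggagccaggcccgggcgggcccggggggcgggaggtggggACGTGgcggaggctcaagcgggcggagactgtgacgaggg
Eno2: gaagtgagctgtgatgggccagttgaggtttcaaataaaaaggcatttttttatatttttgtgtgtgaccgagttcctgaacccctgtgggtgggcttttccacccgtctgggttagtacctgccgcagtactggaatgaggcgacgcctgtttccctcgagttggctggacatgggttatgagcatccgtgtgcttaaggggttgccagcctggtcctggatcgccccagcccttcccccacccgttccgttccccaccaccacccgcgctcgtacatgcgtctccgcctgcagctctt
Aldoc: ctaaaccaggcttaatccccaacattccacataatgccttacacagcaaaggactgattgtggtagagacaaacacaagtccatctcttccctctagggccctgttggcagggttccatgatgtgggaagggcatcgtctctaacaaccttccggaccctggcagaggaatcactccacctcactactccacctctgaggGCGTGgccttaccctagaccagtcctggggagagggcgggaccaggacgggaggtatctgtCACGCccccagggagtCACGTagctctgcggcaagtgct
Pfkp: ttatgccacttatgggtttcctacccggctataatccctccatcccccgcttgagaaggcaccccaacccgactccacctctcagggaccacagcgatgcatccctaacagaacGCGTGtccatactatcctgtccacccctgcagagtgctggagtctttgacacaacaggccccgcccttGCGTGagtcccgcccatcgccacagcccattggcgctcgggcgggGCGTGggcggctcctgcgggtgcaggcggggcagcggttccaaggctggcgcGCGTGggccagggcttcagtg
Slc16a3 held ACGTG in 2 places and Car9 in 1, P4ha2 held both motifs in 2 places each, and Eno2 held neither. Of the genes higher in MYT tumours, Aldoc held ACGTG in 1 place and GCGTG in 2, and Pfkp held GCGTG in 4. Eno1 and Ldhb, also called higher in MYT tumours, held GCGTG and no ACGTG, so Aldoc alone of the members called higher held ACGTG. Of the members called lower that had a start region, Adm, Pfkfb4 and Eno2 lacked ACGTG and the others held it. At least 1 of the motifs was present for 31 of 34 members, so the 6 genes shown cannot compare the directions. A difference in motifs between the directions was not tested.

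Libraries of the VEH_7 and M20_7 groups held 26517748 to 34637096 counts, and those of the other groups 13701115 to 20105407. Because all tumours of the _7 set were sequenced more deeply, depth and set cannot be told apart. The label mammary tumour was checked against summed markers of luminal epithelium (Epcam, Krt8, Krt18, Krt19, Cdh1), in CPM (counts scaled to a common library size). They lay between 20.6 and 76.3 in the 7 tumours of the _7 set, between 599 and 1829.9 in VEH, and between 2980.4 and 9269.8 in the MYT, SPON and WT tumours. Summed mesenchymal markers (Vim, Zeb1, Zeb2, Prrx1, Twist1, Fn1) went the other way, from 11425 to 31609.9 in the 3 groups VEH_7, M20_7 and VEH and from 229.7 to 5706 in the others. In bulk tissue, fewer cells of a type and less RNA per cell cannot be told apart.

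**Figure D1:**
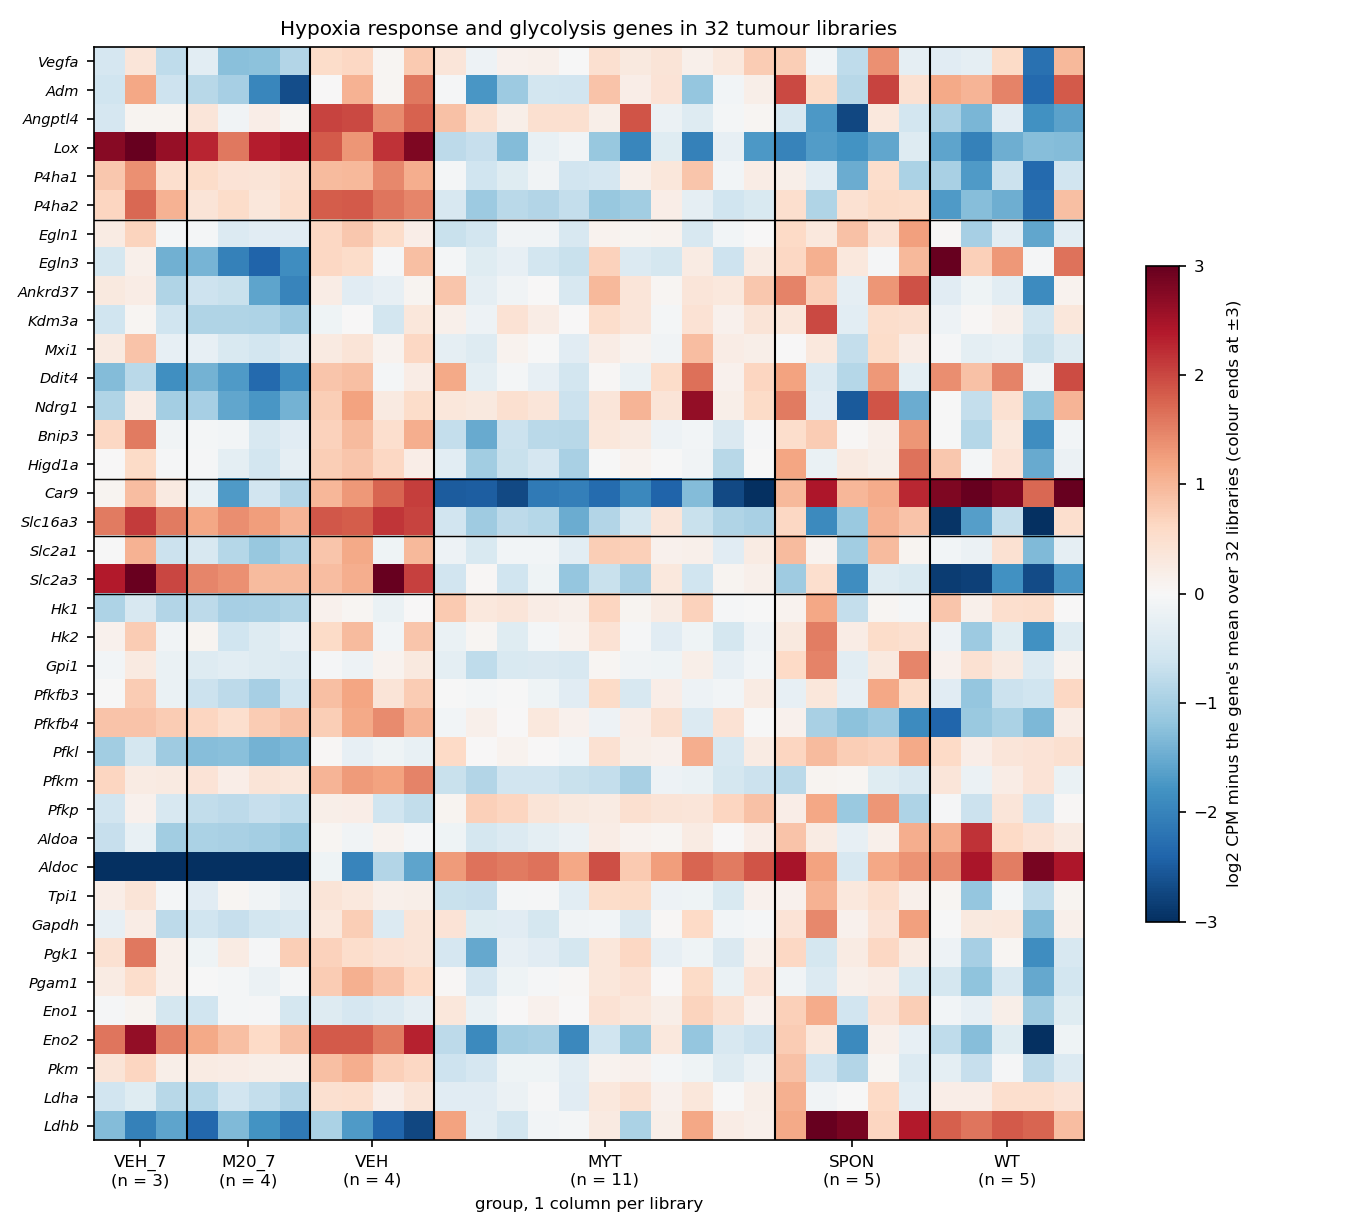
Log2 CPM of the 38 members in 32 libraries, each minus the gene's mean over the libraries; rows are genes in the order of their roles (secreted and matrix, oxygen sensing and stress, acid and lactate export, glucose transport, glycolytic enzymes), columns are libraries by group, and colour runs from blue (lower) to red (higher) with its ends at 3 below and above. Car9 is blue in all MYT libraries, Aldoc is blue in the VEH_7 and M20_7 libraries, and VEH_7 replicate 2 is redder than its neighbours in most rows.

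Per base of transcript, Pkm, Aldoa, Ldha and Tpi1 were the 4 most abundant members in each of the 6 groups. Divided by transcript length in kilobases (RPKM), VEH tumours had means of 667 ± 100.2 for Pkm (pyruvate kinase), 476 ± 29.4 for Aldoa, 341 ± 31.0 for Ldha and 310.4 ± 23.9 for Tpi1 (SD, n = 4), and WT tumours had 277 ± 59.2, 1009 ± 641, 336 ± 35.1 and 212 ± 72.3 in the same order (SD, n = 5). At the other end, the neuronal-type glucose transporter gene Slc2a3 had 3.22 ± 2.41 in VEH and 0.143 ± 0.0621 RPKM in WT. Gapdh had only 8.04 to 21.3 RPKM as group means. Its transcript is near-identical (at least 95% over at least 300 bases) to 77 other annotated genes, so reads may have been lost or split between copies. The counts of Bnip3 (5 such copies), Pgk1 (4), Eno1 and Ldha (3 each) and 8 further members with 1 copy each are uncertain for the same reason, and 25 members had no such copy.

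Members varied least among the M20_7 tumours and most among the SPON tumours. The median coefficient of variation of CPM over the 38 members was 12.2% in M20_7, 18.4% in VEH, 29.4% in MYT, 31.4% in VEH_7, 39.9% in WT and 50.8% in SPON. VEH_7 replicate 2 was the highest of its group in 35 of the 38 members, and WT replicate 4 was the lowest of its group in 25.

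Vegfa, the growth factor that calls in blood vessels, had ranges that ran into each other from group to group. Its mean CPM was 418 ± 84.6 in VEH, 385 ± 237 in SPON, 352 ± 62.7 in MYT, 306 ± 197 in WT, 251 ± 109 in VEH_7 and 159 ± 52.3 in M20_7. Neighbouring groups in this order overlapped in every case. Slc2a1, the main glucose transporter gene of tumour cells, ran from 395 ± 128 in VEH to 129 ± 25.6 in M20_7, and again each neighbour overlapped the next.

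Car9, the membrane carbonic anhydrase that disposes of acid outside the cell, had a wide order. Its mean CPM was 60.5 ± 21.3 in WT, 27.6 ± 14.4 in SPON, 25.4 ± 8.29 in VEH, 11.7 ± 3.88 in VEH_7, 4.97 ± 1.94 in M20_7 and 1.69 ± 0.651 in MYT. The steps from VEH to VEH_7 and from VEH_7 to M20_7 did not overlap, and the other neighbours did. Ldha, which turns pyruvate into lactate, was lower in every tumour of the _7 set than in any other tumour, though the nearest values, in VEH_7 and MYT, were close. Its 32 values ran from 673 to 1784 CPM in the VEH, MYT, SPON and WT tumours and from 467 to 668 CPM in the _7 set. Pgk1, an ATP-making enzyme of glycolysis, had means from 218 ± 121 in VEH_7 down to 82.0 ± 36.5 CPM in WT, with overlap between every pair of neighbours.

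**Figure D2:**
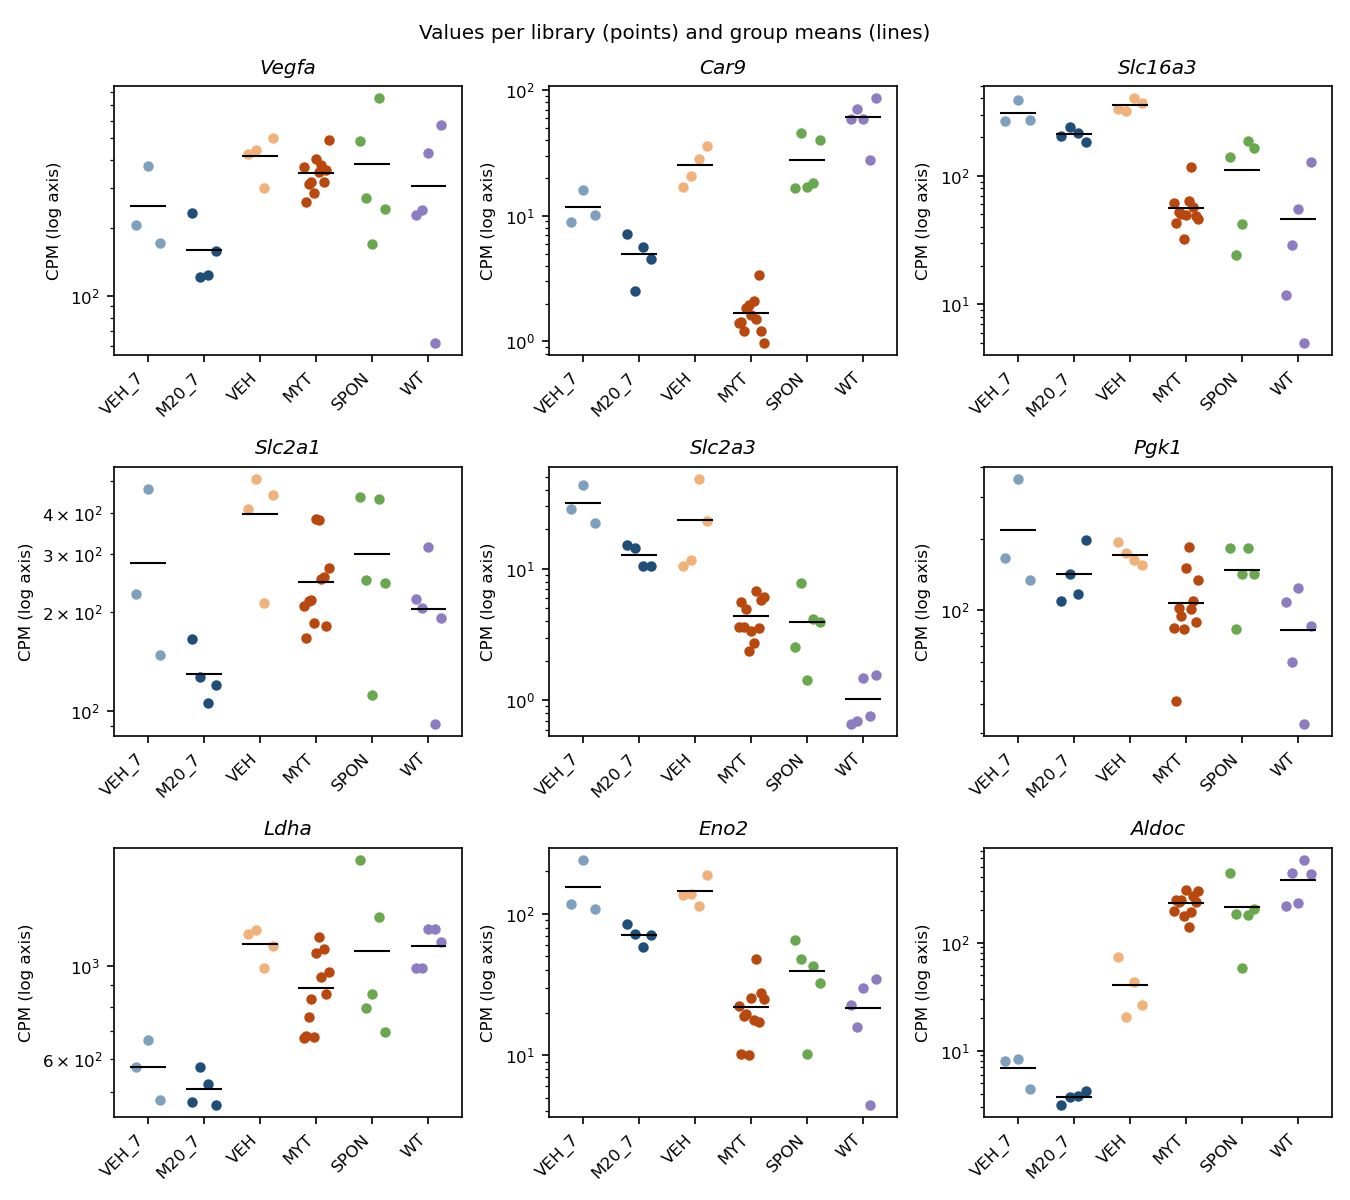
CPM per library on a log axis for 9 members (points are libraries, lines are group means; VEH_7 n = 3, M20_7 n = 4, VEH n = 4, MYT n = 11, SPON n = 5, WT n = 5). The 11 MYT tumours lie at 0.973 to 3.35 CPM for Car9, below the 4 VEH tumours at 17.0 to 35.7, while for Aldoc they lie at 138 to 306 CPM, above the VEH tumours at 20.4 to 73.2.

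The comparison of M20_7 with VEH_7 asked whether RP-6306 changed these genes in the set titled _7. Nearly the whole set lay lower in the treated tumours, but no gene passed the test across the genome. With edgeR's quasi-likelihood test, 0 of 38 members and 0 of 16699 genes (0%) had an adjusted p under 0.05. By unadjusted p under 0.05, 27 members were lower and 0 higher, where 3.63% of all genes were lower and 2.55% higher. The log2 fold change was below 0 in 37 members, against 48.7% of all genes, with a median of -0.57 beside 0.01 over all genes. The groups did not overlap in 14 members, all lower, against 3.58% of genes lower and 3.1% higher by that criterion. Members move together from tumour to tumour, so these counts are not 38 separate observations.

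The smallest p-values belonged to Slc2a3, Pfkfb3 and Eno2. Slc2a3 stood at 28.7, 43.6 and 22.2 CPM in the VEH_7 tumours and at 15.2, 14.3, 10.6 and 10.6 in the M20_7 tumours. Pfkfb3, whose product makes the activator of phosphofructokinase, stood at 55.6, 94.8 and 49.2 against 35.9, 32.9, 28.1 and 36.9 CPM. Eno2 stood at 118, 239.9 and 109 against 84.4, 72.2, 58.0 and 71.1 CPM. In all 3 genes every treated tumour was below every vehicle tumour. The log2 fold changes were -1.32 ± 0.23 (SE) for Slc2a3, -0.99 ± 0.21 for Pfkfb3 and -1.12 ± 0.25 for Eno2, with edgeR adjusted p of 0.55, 0.66 and 0.66.

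Oxygen sensing and acid handling followed. Egln3, the prolyl hydroxylase gene that HIF itself induces, stood at 103, 164 and 54.3 CPM in VEH_7 and 55.4, 35.9, 27.8 and 40.0 in M20_7, and the groups overlapped at 1 tumour (-1.43 ± 0.33, adjusted p = 0.66). Car9 stood at 8.84, 16.1 and 10.1 against 7.15, 2.53, 5.65 and 4.53 CPM, with no overlap (-1.24 ± 0.33, adjusted p = 0.71). Egln1, the main oxygen-sensing hydroxylase gene, stood at 138, 183 and 111 against 111, 87.4, 90.6 and 90.9 CPM (-0.60 ± 0.16, adjusted p = 0.71). The 9 members of the oxygen sensing and stress role all had a fold change below 0, with a median of -0.76. The 19 glycolytic enzymes also did, with a median of -0.38, and reached from Eno2 at -1.12 to Pfkm at -0.06.

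Among secreted and matrix genes, the vasodilator gene Adm had the lowest value of the whole set, -1.69 ± 0.51, and the collagen cross-linker Lox had -0.78 ± 0.25. Angptl4, a secreted inhibitor of lipoprotein lipase, was the only member above 0, at 0.23 ± 0.17. Vegfa had -0.66 ± 0.29, Slc2a1 -1.13 ± 0.32, Pgk1 -0.63 ± 0.32 and Ldha -0.17 ± 0.13.

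These values leaned on VEH_7 replicate 2. Without it the median of the 38 members was -0.28, 37 were still below 0 and 17 were lower at unadjusted p under 0.05, while Vegfa went from -0.66 to -0.25, Slc2a1 from -1.13 to -0.54 and Pgk1 from -0.63 to -0.08. DESeq2 called 4 members, all lower (Slc2a3, Egln3, Pfkfb3 and Eno2, with adjusted p of 0.000252, 0.005, 0.00668 and 0.00753), among 55 genes in all, and edgeR without the filter on low counts called Slc2a3 (adjusted p = 0.0354). VEH_7 replicate 2 was also the highest of its group in summed endothelial markers (391 CPM, against 214 and 285) and in mesenchymal markers. The summed endothelial markers were 239.7 to 385 CPM in M20_7 and 214 to 391 in VEH_7, so these ranges overlapped, and the part of cell content in the result was not tested.

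Of the wider lists, the hypoxia targets lay mostly below 0 and the further glycolysis genes did not. Of genes fixed as lists beside the members, 27 of 32 other hypoxia targets were below 0, with a median of -0.37, led by Ak4 (-0.62 ± 0.13), Ccng2 (-0.68 ± 0.16) and Pdk1 (-0.88 ± 0.23), and none was called. Of the 8 tested genes of the HIF pathway core, 6 were below 0, Hif1a at -0.31 ± 0.14. Of the 17 tested further glycolysis and fuel genes 7 were below 0, with a median of 0.07.

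The comparison of MYT with VEH asked the same of the set without the suffix, where the tumours of the 2 groups differed in most of their transcriptome. Both acid and lactate export genes, Lox, P4ha2, Pfkm and Eno2 had the smallest p-values and were lower in the MYT tumours, whereas Aldoc and Ldhb were higher. Of the 38 members, 21 were lower and 4 higher with edgeR at an adjusted p under 0.05, and 13 were not called. Across the genome 59.5% of 16021 genes were called, 29% lower and 30.5% higher. The log2 fold change was below 0 in 29 members, against 47.9% of genes, and its median was -0.69, beside 0.04 over all genes. The groups did not overlap in 14 members lower and 2 higher, against 18.2% and 16.9% of all genes.

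**Figure D3:**
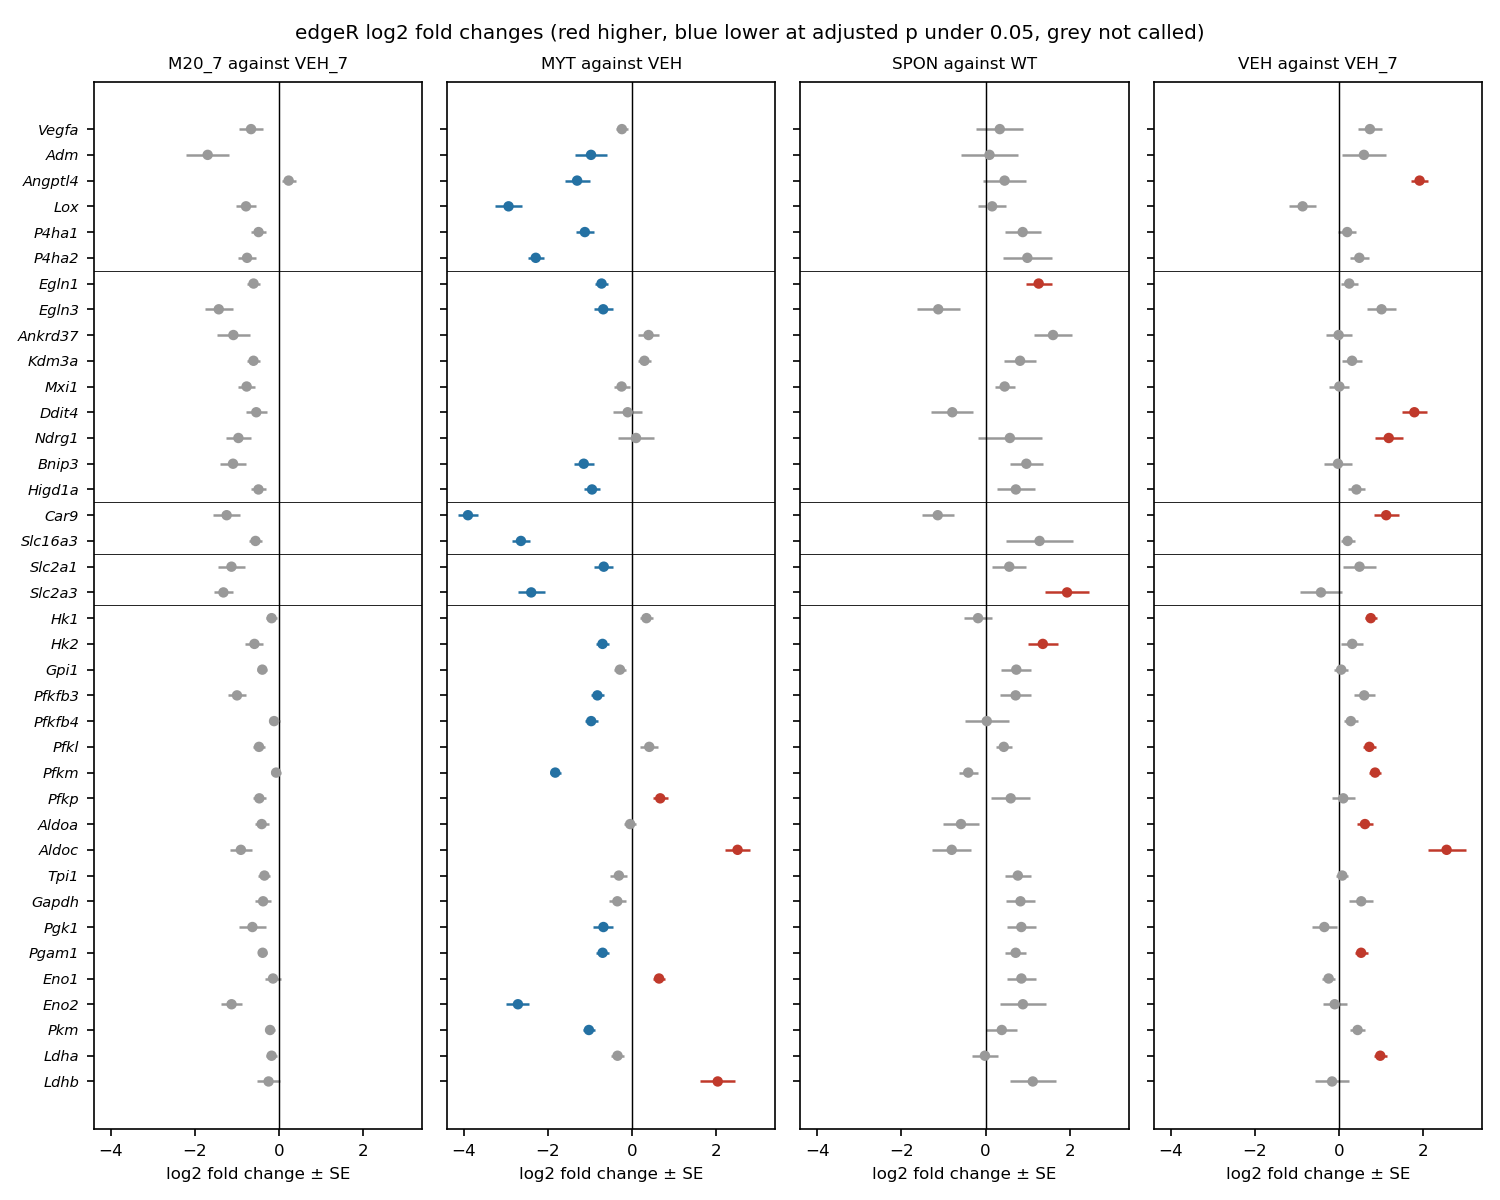
Log2 fold changes (points, edgeR) with their standard errors (bars) of the 38 members in 4 comparisons; blue is lower and red higher at an adjusted p under 0.05, grey is not called, and lines part the roles. In the panel of M20_7 against VEH_7 all points are grey and 37 lie left of 0, and in the panel of MYT against VEH 21 points are blue and 4 red.

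Car9 stood at 17.0, 20.7, 28.3 and 35.7 CPM in the VEH tumours and between 0.973 and 3.35, with a median of 1.51, in the 11 MYT tumours. No other member differed as much, and the log2 fold change was -3.90 ± 0.25 (edgeR adjusted p = 3.14e-09). Slc16a3, which carries lactate out of glycolytic cells, stood at 331, 319.6, 402 and 370.3 CPM in VEH and between 32.3 and 118 in MYT, with a median of 50.5. Its fold change was -2.65 ± 0.21 (adjusted p = 3.24e-08), so both members of the export role were lower in every MYT tumour than in any VEH tumour.

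Matrix genes came next. P4ha2, a subunit of the enzyme that hydroxylates collagen, stood at 124, 126, 107 and 97.5 CPM in VEH and between 16.1 and 40.2 in MYT, median 21.3 (-2.29 ± 0.18, edgeR adjusted p = 3.26e-08). Lox stood at 208, 147, 262 and 407 CPM in VEH and between 14.3 and 54.4 in MYT, median 33.7 (-2.94 ± 0.32, adjusted p = 7.5e-07). Neither gene overlapped between the groups. P4ha1 (-1.13 ± 0.21), Angptl4 (-1.31 ± 0.29) and Adm (-0.98 ± 0.37) were lower too, so that 5 of 6 secreted and matrix genes were called. The exception was Vegfa, at 425, 446, 300.1 and 500.1 CPM in VEH and from 261 to 491 in MYT (-0.24 ± 0.15, adjusted p = 0.16).

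The tumours that differed in these genes also differed in their cell type markers. Summed fibroblast markers (Col1a1, Col1a2, Pdgfra, Dcn, Lum) were 7996 to 12608 CPM in VEH and 588 to 3338 in MYT, endothelial markers 267 to 409 and 82.3 to 182, and macrophage markers 916 to 1234 and 137 to 292. All 5 fibroblast, 6 endothelial and 4 macrophage markers were called lower and all 5 luminal markers higher. None of these ranges overlapped, no marker of these 4 lists was at 0 in all libraries of a group, neutrophil markers were 6.08 to 45.7 CPM in VEH and 60.4 to 145 in MYT, and the part of cell content in the members' values was not tested.

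Both glucose transporter genes were called lower. Slc2a3 stood at 10.5, 11.8, 48.1 and 23.1 CPM in VEH and between 2.39 and 6.82 in MYT (-2.40 ± 0.32). VEH replicate 3 held the highest value, and without it the fold change was -1.76 and still called. Slc2a1 stood at 410.4, 505, 212 and 452 CPM in VEH and between 166 and 382 in MYT, with overlap (-0.68 ± 0.22, adjusted p = 0.016), and the call was lost without VEH replicate 2 (adjusted p = 0.08) or replicate 4 (0.0516).

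Of the 9 oxygen sensing and stress genes, 4 were lower and 0 higher. Egln1 (-0.73 ± 0.15), the mitophagy gene Bnip3 (-1.15 ± 0.24) and Higd1a (-0.95 ± 0.20), a small mitochondrial protein, did not overlap between the groups. Egln3 (-0.69 ± 0.22) did overlap, and it and Adm were not called without VEH replicate 4 (adjusted p = 0.0711 and 0.202). Adm was also lost without VEH replicate 2 (0.0815). The 5 members not called were close to 0, from Mxi1 at -0.25 ± 0.19 to Ankrd37 at 0.39 ± 0.25, with Ddit4, an inhibitor of mTORC1 signalling, at -0.11 ± 0.34, Ndrg1 at 0.09 ± 0.44 and the histone demethylase gene Kdm3a at 0.29 ± 0.15.

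The 19 glycolytic enzymes split, with 8 lower, 4 higher and 7 not called. Pfkm, the muscle-type phosphofructokinase, stood at 86.4, 103, 98.3 and 119.5 CPM in VEH and between 21.6 and 38.3 in MYT, median 27.2 (-1.83 ± 0.13, edgeR adjusted p = 1.12e-08). Eno2, the neuron-type enolase, stood at 137, 138, 114 and 189 CPM in VEH and between 10.02 and 47.6 in MYT, median 19.6 (-2.72 ± 0.27, adjusted p = 3.58e-07). The other lower enzymes were Pkm (-1.03 ± 0.14), Pfkfb4 (-0.98 ± 0.15), Pfkfb3 (-0.83 ± 0.16), Hk2 (-0.71 ± 0.16), Pgam1 (-0.70 ± 0.16) and Pgk1 (-0.68 ± 0.24). Pgk1 ran from 155 to 193 CPM in VEH and from 41.0 to 184 in MYT and was not called without VEH replicate 1 (adjusted p = 0.0624).

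Summed skeletal muscle markers were 604, 939, 220.3 and 72.0 CPM in VEH replicates 1 to 4 and 0.677 to 6.23 in MYT. Pfkm was highest in VEH replicate 4, the replicate with the lowest muscle markers, and without VEH replicates 1 and 2 its fold change was -1.91. That fit, added with the values already in view, gave 16 members lower and 4 higher, and Adm, Egln3, Slc2a1, Hk2 and Pgk1 were no longer called. Of all genes it called 45.8%, where the main fit called 59.5%. The VEH replicates kept in it still held more muscle markers than any MYT tumour. The part of muscle content in these values was not tested.

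The 4 members higher in MYT were each an isozyme of a step that other members also carry out, and Aldoc led them. It stood at 73.2, 20.4, 43.2 and 26.6 CPM in VEH and between 138 and 306 in MYT, without overlap (2.50 ± 0.30, edgeR adjusted p = 2.3e-06). Ldhb, the lactate dehydrogenase subunit typical of oxidative tissue, stood at 13.4, 7.95, 4.91 and 3.79 against 13.3 to 59.8 CPM, median 28.6 (2.03 ± 0.42). Eno1 had 0.64 ± 0.14 and Pfkp, the platelet-type phosphofructokinase, 0.67 ± 0.18. One fit over the 32 libraries gave 3 members higher and 18 lower, beside 46.6% of 18184 genes called. In it Pfkp was not called (edgeR adjusted p = 0.0851), nor were Adm, Egln3 and Slc2a1. Ldha, the partner of Ldhb, ran from 989.5 to 1219.9 CPM in VEH and from 673 to 1168 in MYT (-0.35 ± 0.15, adjusted p = 0.058). It was called lower by DESeq2 (adjusted p = 0.0318) and by limma voom (0.043). Aldoa had -0.05 ± 0.14.

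The isozyme mix of the MYT tumours therefore differed from that of VEH. On the RPKM scale, Aldoc made up 2.5% ± 1.31 of Aldoa plus Aldoc in VEH (SD, n = 4) and 13.6% ± 3.16 in MYT (SD, n = 11). Eno2 made up 27% ± 3.28 of the 2 enolase genes in VEH and 3.52% ± 1.57 in MYT. Ldhb made up 1.35% ± 0.694 and 6.95% ± 3.46 of the lactate dehydrogenase pair, and Pfkm 37.8% ± 5.54 and 11.3% ± 2.35 of the 3 phosphofructokinase genes. The SPON and WT tumours were nearer to MYT than to VEH in Aldoc (8.49% ± 3.65 and 12.4% ± 7.44), Eno2 (4.8% ± 1.77 and 4.61% ± 2.32) and Pfkm (10.1% ± 2.58 and 17% ± 2.66). This did not hold for every isozyme. Pfkp made up 14.6% ± 9.21 in SPON and 12.5% ± 3.05 in WT, nearer to VEH (12.5% ± 3.85) than to MYT (21.5% ± 5.55). For Hk2 of the hexokinase pair, SPON (35.2% ± 4.37) was nearer to VEH (36.2% ± 5.66) than to MYT (22.3% ± 3.7), and WT had 15.3% ± 5.61. In VEH_7 and M20_7, Aldoc made up 0.68% ± 0.133 and 0.486% ± 0.0809, Eno2 24.6% ± 5.83 and 15.1% ± 4.29, and Pfkm 33.7% ± 7.4 and 39.7% ± 1.88. These shares are given as a description.

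**Figure D4:**
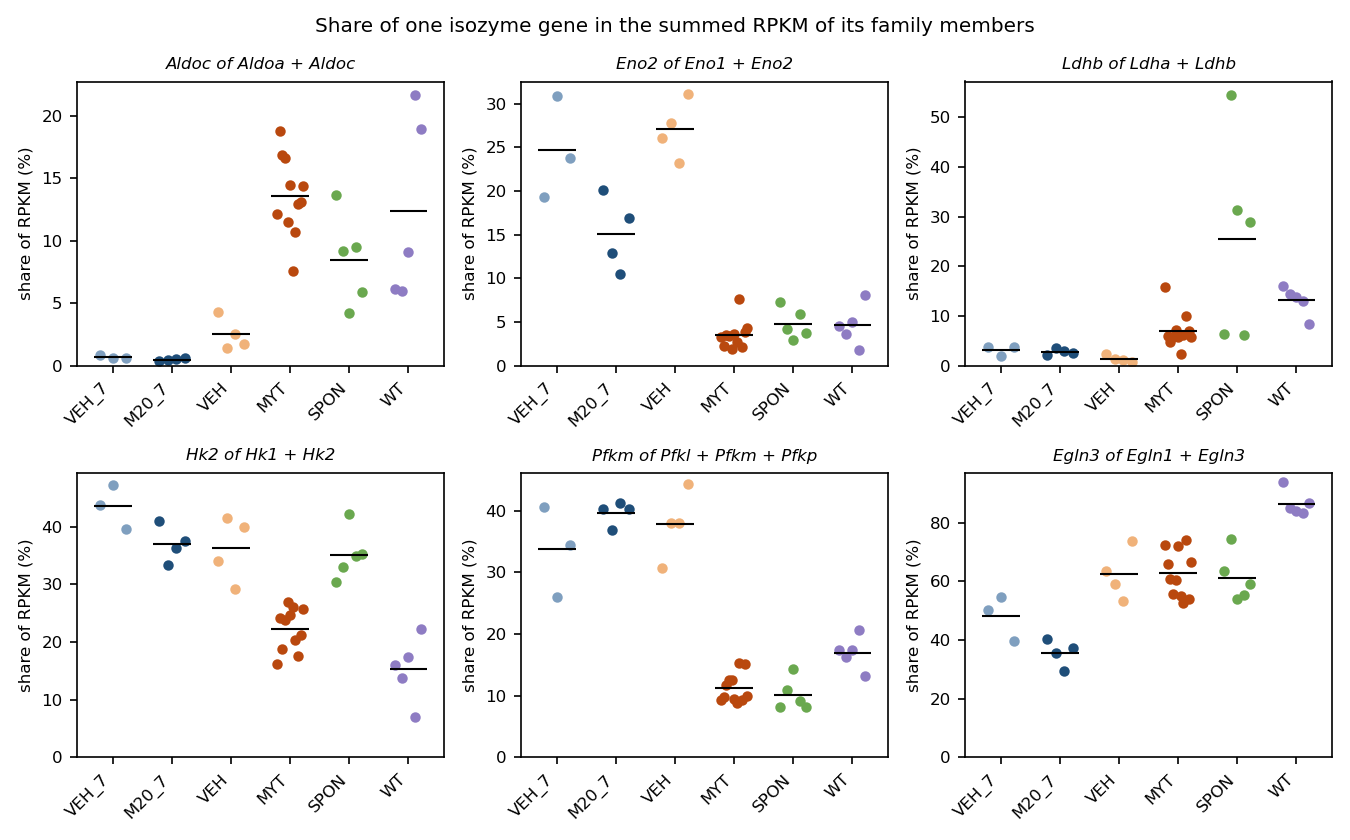
Share of 1 isozyme gene in the summed RPKM of its family, in percent from 0, for 6 families (points are libraries, lines are group means). Eno2 makes up 23.2 to 31.1% of the enolase pair in the 4 VEH tumours and 1.94 to 7.66% in the 11 MYT tumours, and the WT tumours lie highest for Egln3 of the Egln1 and Egln3 pair, at a mean of 86.6%.

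Hif1a, which encodes 1 of the oxygen-regulated alpha subunits, was lower in MYT and was the only HIF core gene called lower. Hif1a had means of 422 ± 165 CPM in VEH and 79.6 ± 14.0 in MYT (-2.40 ± 0.18, edgeR adjusted p = 1.43e-08). Hif1an, which encodes an asparagine hydroxylase that restrains HIF, was higher (0.82 ± 0.13), as was the partner subunit gene Arnt2 (2.36 ± 0.48). In all, 4 of 8 tested genes of the HIF core were higher and 1 lower. Of 32 other hypoxia targets 18 were lower and 5 higher, led by Stc1 (-3.43 ± 0.25), the glycogen branching enzyme gene Gbe1 (-2.25 ± 0.18) and Loxl2 (-2.60 ± 0.21), a relative of Lox. Of 19 further glycolysis and fuel genes 6 were lower and 6 higher, led by Eno3 (-4.57 ± 0.42), the muscle enolase, Hk3 (-1.62 ± 0.21) and Adpgk (-1.14 ± 0.15). Eno3 had 117 ± 42.1 CPM in VEH, where muscle markers were also high, and 4.92 ± 4.07 in MYT.

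The difference between the 2 sets in RP-6306 against vehicle was tested as an interaction. Its values rest on the tumours already compared and are no independent evidence. With edgeR, 16 members differed, 7 with a higher and 9 with a lower fold change in the set without the suffix, and 36% of 17095 genes were called (17% higher, 18.9% lower). The difference was below 0 in 18 members, against 49.5% of genes. The largest differences were Aldoc (3.41 ± 0.43), which had -0.90 ± 0.25 in the _7 set and 2.50 ± 0.30 in the other, Car9 (-2.66 ± 0.46), Ldhb (2.28 ± 0.57), Lox (-2.15 ± 0.54), Slc16a3 (-2.09 ± 0.35) and Pfkm (-1.76 ± 0.21). P4ha2 (-1.53 ± 0.33) and Pfkp (1.14 ± 0.27) had p-values among the 6 smallest, with Aldoc, Car9, Slc16a3 and Pfkm. Car9, Slc16a3 and Lox were below 0 in both sets, and the distance came from their size. For Pfkm the value was -0.06 ± 0.12 in the _7 set and -1.83 ± 0.13 in the other.

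Between the sets, Vegfa (0.42 ± 0.32), Slc2a1 (0.46 ± 0.42), Pgk1 (-0.05 ± 0.44) and Ldha (-0.17 ± 0.23) were not called, and standard errors of this size leave room for differences in either direction. In 1 fit over all 32 grouped libraries, which shares the spread of the SPON and WT tumours, only 6 members were called, 3 higher and 3 lower. Over all genes 19.3% were called in that fit. Without VEH_7 replicate 2, 4 were higher, with Ankrd37, Eno1 and Pfkl lost, beside 31.9% of all genes called.

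The 2 vehicle groups were compared to see how far the sets differed without treatment. VEH had 11 members higher than VEH_7 and 0 lower with edgeR, where 31% of 15555 genes were called (15.4% higher, 15.6% lower), and the same number of members did not overlap, higher in VEH, against 19.4% of genes. The fold change was below 0 in 8 members, against 49.5% of genes. By unadjusted p under 0.05, 1 member was lower (21.7% of genes), Lox (-0.86 ± 0.33), which DESeq2 called. Angptl4 stood at 191, 185, 126 and 161 CPM in VEH and at 33.0, 49.6 and 49.4 in VEH_7 (1.92 ± 0.20, adjusted p = 0.00029). Ldha stood at 1189.6, 1219.9, 989.5 and 1115 against 574, 668 and 478 CPM (0.98 ± 0.15, adjusted p = 0.0021). Ddit4 stood at 232, 247, 126 and 154 against 53.0, 75.0 and 36.7 CPM (1.79 ± 0.30, adjusted p = 0.003). Each of these genes was higher in all 4 VEH tumours than in any VEH_7 tumour.

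Aldoc differed most in size between the vehicle groups, at 2.56 ± 0.45, with 73.2, 20.4, 43.2 and 26.6 CPM in VEH against 8.08, 8.37 and 4.41. Pfkm stood at 86.4, 103, 98.3 and 119.5 against 66.7, 50.6 and 51.8 CPM (0.86 ± 0.15), and the hexokinase gene Hk1 at 249, 235, 199 and 230.02 against 121, 163 and 123 (0.76 ± 0.15). These were the 6 smallest p-values, and the groups overlapped in none of the 6 genes. Summed skeletal muscle markers were 72.0 to 939 CPM in VEH and 0.455 to 61.3 in VEH_7, luminal markers were 599 to 1829.9 and 20.6 to 76.3, and neutrophil markers were 6.08 to 45.7 and 1.62 to 8.47, and the part of cell content in these values was not tested. Pfkl, Car9, Ndrg1, Pgam1 and Aldoa were also higher. Vegfa (0.74 ± 0.28, adjusted p = 0.071), Slc2a1 (0.49 ± 0.40) and Pgk1 (-0.35 ± 0.30) were not called. Vegfa was called higher by DESeq2 (adjusted p = 0.0227), limma voom (0.0449, or 0.0147 with sample quality weights) and edgeR without the filter (0.0439). Leaving out VEH_7 replicate 2 (0.00876) or VEH replicate 3 (0.0434) also gave the call with edgeR. Other scaling, 1 fit over 32 libraries and the other left-out fits did not. VEH_7 replicate 2 mattered again. Without it 17 members were higher, beside 23.8% of all genes called in either direction. Without VEH_7 replicate 1 or 3 only 7 were, beside 20.9% and 20.3% of genes, with Car9, Ndrg1, Pgam1 and Aldoa lost in both fits. Aldoa was also lost without any 1 of the VEH replicates (adjusted p = 0.0535 to 0.0729), and Ndrg1 and Pgam1 without VEH replicate 2 (0.0572 and 0.0661). Of the wider lists, 11 of 32 hypoxia targets were higher and 5 lower, led by Ppfia4 (-2.70 ± 0.26), Ampd3 (1.41 ± 0.21) and Gbe1 (1.31 ± 0.20). Of 16 further glycolysis and fuel genes 6 were higher and 1 lower, led by Bpgm (2.55 ± 0.22), which was called beside higher red blood cell markers (187 to 1407.6 summed CPM in VEH, 33.6 to 82.1 in VEH_7), the lactate transporter gene Slc16a1 (1.12 ± 0.16) and Eno3 (2.33 ± 0.44). Epas1, which encodes HIF-2 alpha, was the only HIF core gene called (0.82 ± 0.17).

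The untreated SPON and WT tumours differed in few members. Most members were higher in SPON, 30 of 38 above 0 with a median of 0.66 beside 0.07 over all genes, but with edgeR only 3 were called, all higher, among 8.38% of 15558 genes (4.52% higher, 3.86% lower). Below 0 lay 45.4% of all genes. By unadjusted p under 0.05, 11 members were higher (15.1% of genes) and 1 lower (11.6%). The groups did not overlap in 5 members, all higher (Egln1, Hk2, Pfkl, Tpi1 and Pgam1), against 4.36% of genes higher and 5.45% lower.

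Egln1 stood at 175, 143, 213, 155 and 271 CPM in SPON and at 118, 58.0, 93.2, 39.0 and 92.2 in WT, without overlap (1.26 ± 0.31, edgeR adjusted p = 0.031). Hk2, the inducible hexokinase gene, stood at 74.5, 175, 70.6, 89.2 and 83.8 against 54.0, 28.2, 47.2, 17.1 and 46.0 CPM, also without overlap (1.36 ± 0.35, adjusted p = 0.038). Slc2a3 stood at 2.57, 7.75, 1.43, 4.13 and 3.95 against 0.662, 0.698, 1.49, 0.757 and 1.56 CPM, with overlap (1.94 ± 0.51, adjusted p = 0.041). All 3 calls were fragile. None of them was made without WT replicate 2, 3, 4 or 5 or SPON replicate 5, or with limma voom and sample quality weights. Of all genes, 3.21%, 3.45%, 3.21%, 6.37% and 6.78% were called in these left-out fits in turn, and 8.42% with the weights. Without WT replicate 5, P4ha2 was the 1 member called. In 1 fit over the 32 libraries 13 members were called higher and 2 lower, beside 30.1% of 18184 genes called.

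Ankrd37, a small ankyrin-repeat HIF target, came next, at 26.9, 15.7, 7.90, 23.9 and 36.0 CPM in SPON and 7.45, 8.70, 7.61, 2.47 and 10.3 in WT (1.60 ± 0.46, edgeR adjusted p = 0.053). Car9 went the other way, with 16.6, 45.9, 16.8, 18.2 and 40.4 against 59.3, 70.4, 58.9, 27.9 and 86.1 CPM (-1.14 ± 0.38, adjusted p = 0.087). Pgam1 stood at 89.3, 72.7, 107, 112 and 70.4 against 66.6, 41.8, 69.3, 33.0 and 65.8 CPM (0.71 ± 0.25, adjusted p = 0.10). Vegfa (0.34 ± 0.56), Slc2a1 (0.56 ± 0.41), Pgk1 (0.85 ± 0.35) and Ldha (-0.02 ± 0.30) were not called, and Egln3 had -1.13 ± 0.52, with 1326 CPM in WT replicate 1 against 143 to 306 in SPON.

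SPON replicates 1 and 4 stood apart from the other SPON tumours, at -13.2 and -29.8 against 51.9 to 52.7 on the second principal component of log2 CPM, with mesenchymal markers of 4437 and 5706 against 461 to 1167 CPM. They held the highest Vegfa (485 and 754 CPM, against 170.2 to 273), Adm, Ddit4 and Ndrg1 of the group. Without them 3 members were higher and 1 lower, beside 9.93% of all genes called. Without the other 3 SPON tumours 2 were higher and 1 lower, beside 17% of genes, and none of Egln1, Hk2 and Slc2a3 was among them. Both fits were added with the values already in view. Over all 5 tumours, summed macrophage markers were 55.8 to 201 CPM in SPON and 55.2 to 74.9 in WT and endothelial markers 71.5 to 225 and 63.3 to 104, so both ranges overlapped, and their part in the result was not tested.

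Of the wider lists in SPON against WT, 3 of 32 hypoxia targets were higher and 1 lower, Loxl2 (2.17 ± 0.41), Pdgfb (2.30 ± 0.61) and the secreted factor gene Stc2 (-1.98 ± 0.49) having the smallest p. Of 17 further glycolysis and fuel genes, Bpgm was higher (1.79 ± 0.34) and the monocarboxylate transporter gene Slc16a7 lower (-1.42 ± 0.38). None of 8 HIF core genes was called, with Hif1a at 0.64 ± 0.23.

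Within the 11 MYT tumours, the group large enough for it, each other member was correlated with Vegfa over log2 CPM, to ask whether the hypoxia genes varied together. Pearson's r was positive for 31 of 37 members and negative for 6, with a median of 0.38. Correlations of other genes with Vegfa were not computed. These counts therefore cannot tell whether the members varied with Vegfa more than genes at large did. By a two-sided permutation test with 100000 resamples 8 members had p under 0.05 and 0 passed after Benjamini-Hochberg adjustment over the 37. Ankrd37 had the highest r (0.81, permutation p = 0.0022, adjusted 0.052; Spearman's rho 0.81, permutation p = 0.00384, adjusted 0.0474). Adm had r = 0.80 (permutation p = 0.00281, adjusted 0.052) and rho = 0.86 (permutation p = 0.00112, adjusted 0.0403). Eno2 had r = 0.73 (permutation p = 0.0123, adjusted 0.0844) and rho = 0.84 (permutation p = 0.00218, adjusted 0.0403).

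The relations of Ankrd37, Adm and Eno2 to Vegfa were looked at again without the tumours most extreme in Vegfa. These genes had been picked for their high r in the same tumours, so this is no independent check. Without MYT replicates 11 and 2, the farthest from the median of Vegfa, r was 0.80 for Ankrd37, 0.85 for Adm and 0.78 for Eno2. The median over the 37 members went to 0.24, and members with r of at least 0.5 went from 13 to 10. Car9 had the lowest r, at -0.41 (permutation p = 0.21, adjusted 0.444; rho = -0.32, permutation p = 0.343, adjusted 0.524) and -0.34 without those tumours. The values share the depth and scaling of each library, and MYT replicate 9, in which Ndrg1 reached 1720.1 CPM against 175 to 562 in the others, changed the count most, with 5 members passing without it. The labels give no batch, and the ranges of title numbers hold 5 tumours at most, too few for a value within them.

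**Figure D5:**
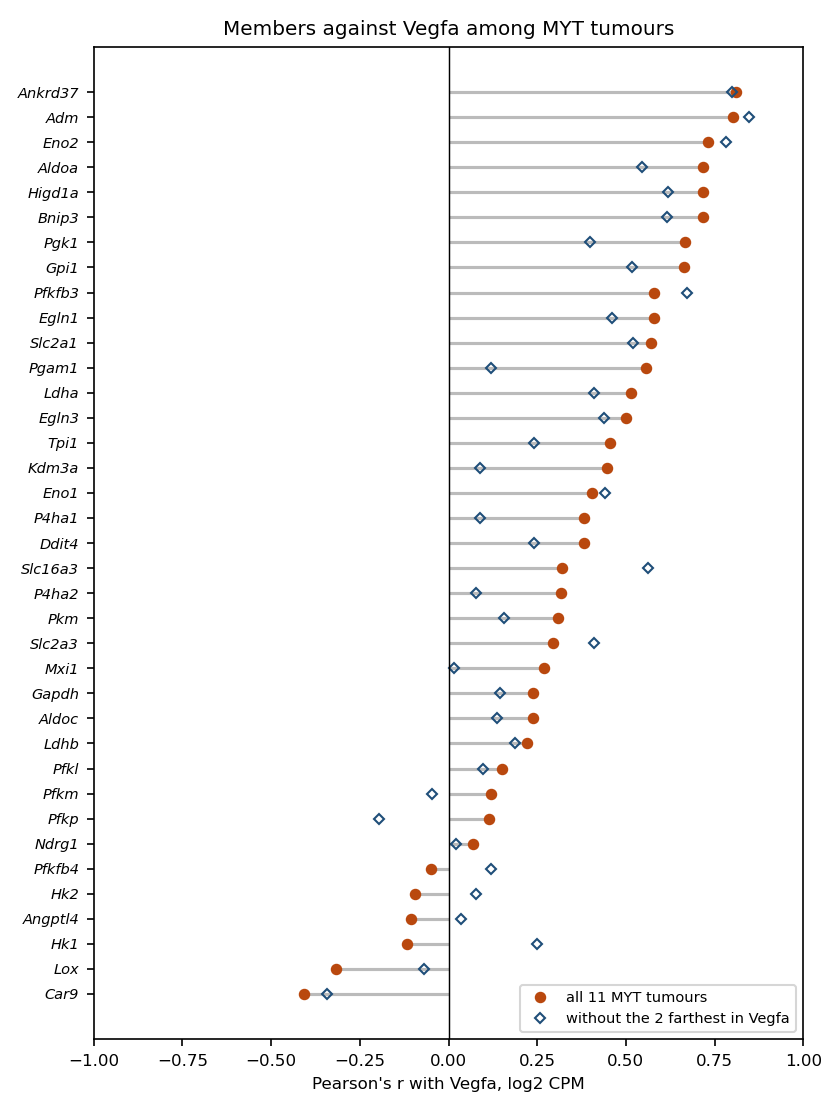
Pearson's r of each of 37 members with Vegfa over log2 CPM of the MYT tumours, in falling order (filled circles, all 11 tumours; open diamonds, without the 2 farthest from the median of Vegfa). Ankrd37, Adm and Eno2 lie at 0.73 or more in the full set and stay at 0.78 or more without the 2 tumours, and Car9 lies lowest at -0.41.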

How the data were processed

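RNA from mouse mammary tumours was extracted with Trizol and sequenced by a commercial provider, per the labels' protocols. Reads were handled with STAR 2.7.10a, HTSeq and edgeR on GRCm38, per the submitters' processing notes; strandedness and annotation are not given in the sources used here, so overlapping and antisense genes cannot be told apart. The deposited table held whole-number read counts per gene for 33 samples; 791 rows without a symbol held 0.0482% of counts. A second deposited table held log2 CPM, which differed from values recomputed here by a median of 0.028 and at most 0.058, and was not used further. A sample whose title and treatment field disagree was left out.

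CPM used TMM factors, RPKM the union of exons in GENCODE M21, and log2 CPM a prior count of 2. Each comparison was fitted on its own groups over all genes with edgeR 4.0.16 (R 4.3.3), using filterByExpr, TMM and the quasi-likelihood test. A gene was called at 0.05 after Benjamini-Hochberg adjustment. Standard errors of log2 fold changes came from the F statistic. No library matched another of its group within counting error over 90 pairs (chi-square at least 16.12 times its degrees of freedom). The fits were tested on simulated counts. Alternatives used DESeq2 1.42.0, limma 3.58.1, other scaling, no filter, 1 fit over 32 libraries and libraries left out.

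The members and lists were chosen with earlier results of these data known. Values per sample are given for the 6 members with the smallest p in a comparison, and Vegfa, Car9, Slc2a1, Pgk1 and Ldha are described throughout; of each wider list at most 3 genes with the smallest p are named. Further values (such as Ldhb, Aldoc and Eno1 in MYT against VEH, Adm, Egln3 of WT, Hif1a and Epas1) were named after they had been seen.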

Additional observations from a re-analysis of the deposited data

Results flagged for a closer look

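A value per tumour was called apart when its gap to the nearest tumour of its group took up more of the group's range than Dixon's 95% critical value allows, in groups of 4 or 5 tumours. Over 152 groups of values this held for 9, where chance gives about 1 in 20, or 7.6. In WT replicate 4 it held for 3 members, all lower than in the other WT tumours: Adm at 4.29 CPM, Ankrd37 at 2.47 and Gapdh at 19.9. WT replicate 5 had the lowest Ldhb of its group, at 49.0 CPM. SPON replicate 2 had 175 CPM of Hk2, above the other SPON tumours, and 18.8 CPM of P4ha2, below them. SPON replicate 5 had 44.8 CPM of Lox, above the others. In M20_7, Egln1 was apart in replicate 1 at 111 CPM, above the others, and Kdm3a in replicate 4 at 42.0 CPM, below them.

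For 16 members the treated-to-vehicle log2 fold change differed between the 2 sets by edgeR's test of the interaction. That test called 36% of 17095 genes (17% higher, 18.9% lower). In 1 fit over the 32 libraries 6 members were called, beside 19.3% of 18184 genes. The fold change was higher in the set without the suffix for Aldoc by 3.41, Ldhb by 2.28, Ankrd37 by 1.48, Pfkp by 1.14, Kdm3a by 0.90, Pfkl by 0.88 and Eno1 by 0.78. The difference was -2.66 for Car9, -2.15 for Lox, -2.09 for Slc16a3, -1.76 for Pfkm, -1.59 for Eno2, -1.54 for Angptl4, -1.53 for P4ha2, -0.86 for Pfkfb4 and -0.82 for Pkm.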

How the results depend on the processing

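MYT against VEH gave 18 to 25 members lower and 4 to 6 higher when 1 library was left out, where 52.2% to 60.5% of all genes were called. It gave 18 lower and 3 higher in 1 fit over 32 libraries (46.6%). In M20_7 against VEH_7 both counts were 0 to 0 with a library left out. There 1 member was lower without the filter (0.0226% of genes called) and 4 with DESeq2 (0.33%). The difference between the sets gave 4 to 7 higher and 8 to 10 lower with a library left out, where 28.8% to 37.2% of all genes were called. In 1 fit over 32 libraries it gave 3 higher and 3 lower (19.3% of all genes called). SPON against WT gave 0 to 3 higher and 0 to 1 lower with a library left out, where 3.21% to 11.9% of all genes were called. It gave 5 higher and 1 lower with DESeq2 (17.2% of genes) and 0 higher with sample quality weights (8.42%). In 1 fit it gave 13 higher and 2 lower (30.1%). It gave 1 lower without SPON replicates 1 and 4 (9.93% of genes called) and 1 lower without replicates 2, 3 and 5 (17%). VEH against VEH_7 gave 7 to 17 higher and 0 to 1 lower with a library left out, where 20.3% to 29.2% of all genes were called. It gave 6 higher in 1 fit (13.5% of genes) and 7 higher without VEH replicates 1 and 2 (16.4%). It gave 1 lower with each of no filter (18.3%), DESeq2 (35.6%) and sample quality weights (34.3%). Correlations with Vegfa passing adjustment went from 0 to 5 positive and 0 to 0 negative with a tumour left out (5 without MYT replicate 9, 2 without 11, 1 without 8). The cause of these shifts was not tested. Among members not called, some fold changes changed sign. In the difference between the sets, without VEH_7 replicate 2 Vegfa was -0.0006649 and Slc2a1 -0.14, and Pgk1 was 0.11 without VEH_7 replicate 1, 0.21 without VEH_7 replicate 3, 0.15 without M20_7 replicate 4, 0.0032 without VEH replicate 1, 0.024 without MYT replicate 2 and 0.048 without VEH replicates 1 and 2. Over the fits with a library left out these differences ran from -0.0006649 to 0.65 for Vegfa, -0.14 to 0.76 for Slc2a1 and -0.61 to 0.21 for Pgk1. In SPON against WT, Vegfa was -0.084 without SPON replicate 4 and -0.44 without SPON replicates 1 and 4, where Slc2a1 was -0.026, and Ldha was 0.0023 without WT replicate 3, 0.069, 0.051 and 0.11 without SPON replicates 2, 3 and 5 in turn, and 0.52 without all 3, with ranges of -0.084 to 0.68 for Vegfa and -0.28 to 0.11 for Ldha. In VEH against VEH_7, Pgk1 was 0.20 without VEH_7 replicate 2 and ranged from -0.61 to 0.20. No paired analysis was possible because the labels give no replicate numbers. Counts of a few reads limit Slc2a3 in WT, where the lowest level was 0.662 CPM.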
